A study of Mus musculus with 24 samples.

Results

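Pancreatic stellate cells (PSC) grown across a membrane from KPC cancer cells, the inverse co-culture, were taken at the time labelled 24 h and compared with control PSC grown alone on the same kind of membrane. The comparison took the 3 co-culture libraries and the 3 control libraries that the sample titles assign to the inverse model at 24 h, which are 6 of the 24 libraries and 2 of the 8 groups sequenced. The other groups were the inverse model at 72 h and, at both times, a standard model in which KPC cells grew on the floor of the well. PSC in all of these groups came from wild-type C57BL/6J mice of 7 to 10 weeks, with 4 to 10 pancreata pooled per isolation at an equal share of males and females, and were used at passages 1 to 2. KPC cells were 1 line from a female mouse whose alleles included p48-Cre, driven by a pancreatic promoter, and lox-stop-lox-Trp53 R172H/+, so the co-culture tests 1 tumour cell line. In the inverse arrangement KPC cells grew on the underside of a membrane with 1 µm pores and PSC were seeded on its upper side 24 h before the start, so the cells had already shared the membrane for those 24 h when the labelled time began. Both groups of PSC were kept in medium with 10% foetal bovine serum, were detached with trypsin, and gave libraries from 120 ng of RNA, against 450 ng in the standard model. The study describes the libraries of a group as biological replicates, but whether each came from its own isolation is not given in the sources used here, so p-values measure the spread between these libraries, which may in part be technical.

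PSC are fibroblast-like cells of the exocrine pancreas that store vitamin A when quiescent. On activation, which plating on a stiff surface is enough to start, they build contractile stress fibres with α-smooth muscle actin and secrete collagen-rich matrix. In pancreatic cancer such cells form much of the stroma, and they range from contractile, matrix-producing myofibroblasts to fibroblasts that secrete inflammatory cytokines and chemokines.

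In PSC facing KPC cells, 13 of 28 tested genes of the contractile apparatus fell, 0 of them rose, and secreted proteins were among the DEG in both directions. Muscle actins (Acta2, Actg2, Acta1) and components of smooth muscle myosin and its regulation (Myh11, Myl9, Mylk) were down-regulated, as were the calponins Cnn1 and Cnn2 and tropomyosin 2 (Tpm2). Osteopontin (Spp1), the protease inhibitor Timp1, stromelysins (Mmp3, Mmp10), the chemokines Ccl11, Ccl2, Ccl7 and Cxcl5, and the cytokine gene Il6 were up-regulated, while elastin (Eln), Tgfb3, Igfbp2 and Adamts1 were down-regulated. Genes were tested where 3 or more of the 6 libraries exceeded an FPKM of 1, and of these 12827 genes 317 (2.47%) were differentially expressed genes (DEG) at an adjusted p under 0.05, 139 up-regulated (1.08%) and 178 down-regulated (1.39%). FPKM scales the fragments of a gene by gene length and by the size of the library, and all adjusted p-values are two-sided and from limma's moderated test of log2(FPKM + 0.5), adjusted after Benjamini and Hochberg over all genes tested. The median log2 fold change, co-culture minus control, was -0.0644 over all genes tested, 0.997 over up-regulated DEG and -0.851 over down-regulated DEG, and 131 DEG changed by at least 1 on the log2 scale. At an unadjusted p under 0.05 there were 1902 genes (14.8% of all tested), the share to read beside the unadjusted counts of lists. The groups did not overlap in any of the 317 DEG, nor in 21.2% of all genes tested (7.38% with co-culture higher, 13.8% with co-culture lower). On this scale the fold changes of weakly expressed genes are understated, and in bulk RNA fewer cells of a type and less RNA per cell cannot be told apart.

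The 6 libraries held 15932737 to 24798761 counted fragments and 12573 to 12889 genes above 1 FPKM. Vim, Col1a1, Col1a2, Pdgfra and Pdgfrb, which mark stellate cells and fibroblasts, were above 100 FPKM in every one of the 6 libraries, whereas the glial filament gene Gfap, a further PSC marker, stayed at or below 0.238 FPKM. Epithelial genes stood out in co-culture library 2, with 15.2 FPKM of Krt8, 11.7 of Krt18, 11.6 of Krt19, 3.41 of Krt7 and 0.948 of Cdh1. In co-culture library 3 Krt8 was 2.00 and Krt19 2.53 FPKM, and in co-culture library 1 Krt8, Krt7 and Cdh1 were listed at 0 and Krt19 at 1.64. Krt8, Krt18, Krt7 and Cdh1 were listed at 0 in all 3 controls. Summed over 18 epithelial markers, co-culture libraries 1 to 3 had 15.9, 63.8 and 15.6 FPKM and controls 8.76, 11 and 12.3, where the other 18 libraries of the series ranged from 5.09 to 23.1. Epcam, a surface marker of epithelial cells, did not exceed 0.123 FPKM in the 6 libraries, and Grhl2, Ovol1 and Tff1 were listed at 0 in all of them.

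Most macrophage genes were low in co-culture library 3. Their sum over 18 markers was 112, 96.6 and 33.3 FPKM in co-culture and 100, 106 and 91.8 in control libraries 1 to 3, and Lyz2, the lysozyme of myeloid cells, was the largest single part of each sum. The leukocyte marker Cd53 went the other way, with 1.27, 2.20 and 2.57 FPKM in co-culture and 0.685, 1.25 and 0.305 in control. The endothelial genes Cdh5, Emcn and Cldn5, the Schwann cell genes Sox10 and Foxd3, and the acinar and islet genes Cpa1, Cpb1, Ptf1a, Ins2 and Gcg were listed at 0 in all 6 libraries. Other members of these lists were detected in every library, namely Egfl7 at 3.01 to 5.15 and Tek at 0.940 to 1.42 FPKM for endothelium and Ngfr at 2.55 to 10.2 FPKM for Schwann cells. Of the acinar and islet markers, Cela1 was above 1 FPKM in every library, with 7.38 to 19.96 FPKM in co-culture and 9.14 to 15.1 in control. Summed over 8 mesothelial markers, co-culture libraries had 33, 42.1 and 36.3 FPKM and controls 23, 24.9 and 20.5, without overlap, of which Wt1 made up 27.8 to 33.6 and 19.6 to 24.0 FPKM (adjusted p = 0.0938), while Lrrn4 and Muc16 were listed at 0 in all 6 libraries and Upk3b did not exceed 0.782. The mesothelial marker Msln had 0.0654, 2.66 and 0.0294 FPKM in co-culture libraries 1 to 3 and was listed at 0 in all controls, and Krt19, which is in both marker lists, was above all controls in each co-culture library. The part that these other cells had in the DEG was not tested. Without co-culture library 2, 106 genes were DEG, without co-culture library 3 there were 412 and without co-culture library 1 there were 312, and leaving out control library 1, 2 or 3 gave 71, 73 and 67. With the spread estimated over all 24 libraries of the series in one model, 12 genes were DEG.

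**Figure D1:**
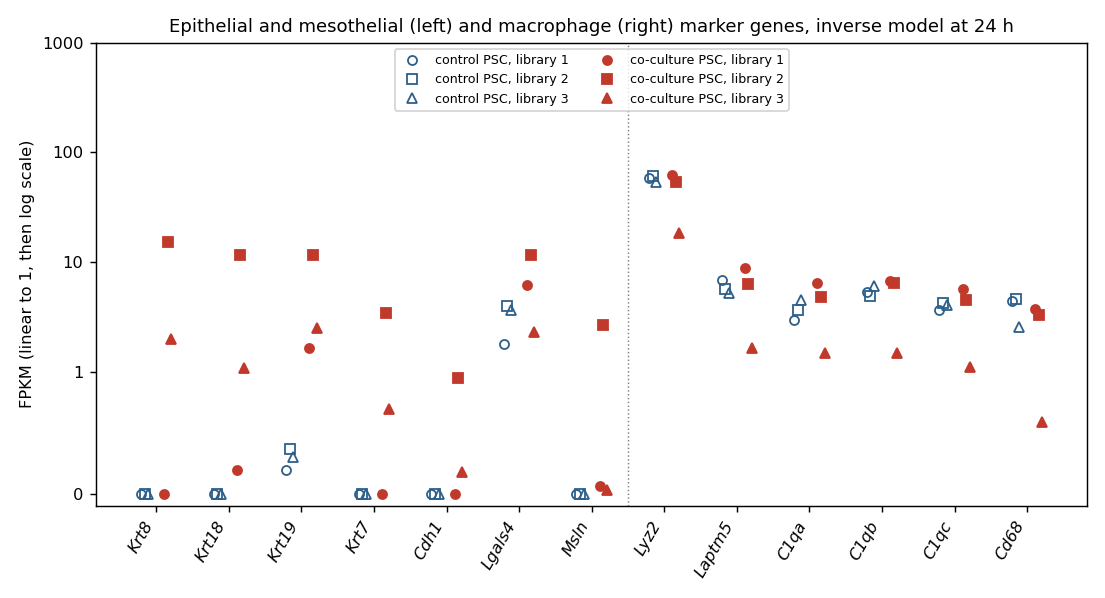
FPKM of epithelial and mesothelial markers (left of the dotted line) and macrophage markers (right) in each of the 6 libraries, on an axis that is linear up to 1 and logarithmic above. Keratin genes were highest in co-culture library 2 (filled squares), with 15.2 FPKM of Krt8 against 0 in all controls, and each of the 6 macrophage genes shown was lowest in co-culture library 3 (filled triangles), with 18.4 FPKM of Lyz2 against 53.8 to 61.0 in controls.

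Contractile genes held more down-regulated DEG than any other gene list examined. Of 29 listed genes of the smooth muscle contractile apparatus 28 were tested, 13 fell, 0 rose and 15 did not pass. The median log2 fold change of the 28 was -0.502, beside -0.0644 for all genes tested. All co-culture values lay below all control values in 20 of them, and in 13.8% of all genes tested. In each co-culture library the median over the list was lower than the control mean, by -0.619, -0.551 and -0.524 on the log2 scale in libraries 1 to 3, while control libraries lay between -0.0684 and 0.0831.

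Acta2 on chromosome 19 (GRCm38, 34241090 to 34255590, minus strand), which encodes α-smooth muscle actin and is the usual marker of activated PSC, had 1474, 1519 and 1253 FPKM in co-culture libraries 1 to 3 and 2835, 2790 and 2922 FPKM in controls. The highest co-culture value was far below the lowest control and the groups did not overlap (log2 fold change -1.01 ± 0.11 SE, n = 3 libraries per group, adjusted p = 0.00514). Actg2, the γ-actin of enteric smooth muscle, had 383, 416 and 390 FPKM in co-culture against 884, 836 and 986 in control (log2 fold change -1.18 ± 0.10, adjusted p = 0.00337). Acta1, the skeletal muscle actin, was far less abundant, with 12.3, 10.3 and 14.4 FPKM against 26.2, 31.6 and 49.6 (log2 fold change -1.46 ± 0.23, adjusted p = 0.0168). The cytoplasmic actins did not pass the test. Actb had 3061, 2993 and 4066 FPKM in co-culture and 3880, 3687 and 4068 in control, so the groups overlapped (log2 fold change -0.21 ± 0.14, adjusted p = 0.53). Actg1 had 1563, 1668 and 1804 FPKM against 1894, 1892 and 1961, a smaller difference but without overlap (log2 fold change -0.19 ± 0.10, adjusted p = 0.409).

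The myosin that works on these filaments fell with them. Myh11, the smooth muscle myosin heavy chain, had 52.7, 79.5 and 71.8 FPKM in co-culture and 163, 149 and 192 in control. This was a log2 fold change of -1.31 ± 0.16 (adjusted p = 0.00786), with no overlap. Myl9, the regulatory light chain, had 1064, 1027 and 829 FPKM against 1657, 1720 and 1849 (log2 fold change -0.85 ± 0.12, adjusted p = 0.0121). Mylk, the kinase that phosphorylates this light chain, had 77.9, 74.9 and 91.3 FPKM against 143, 141 and 170 (log2 fold change -0.89 ± 0.12, adjusted p = 0.00946). Non-muscle myosin Myh9 overlapped between the groups, with 856 to 1402 FPKM in co-culture and 927 to 1197 in control (log2 fold change 0.16 ± 0.19, adjusted p = 0.756).

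Proteins that decorate the actin filament and its anchor points also fell. Calponin 1 (Cnn1), which binds actin and slows the myosin motor, had 291, 338 and 290 FPKM in co-culture and 563, 597 and 609 in control, without overlap (log2 fold change -0.95 ± 0.10, adjusted p = 0.00514). Its relative Cnn2 fell less, by 0.48 ± 0.09 on the log2 scale (adjusted p = 0.0369), and Cnn3 had a log2 fold change of -0.09 (adjusted p = 0.731). Tropomyosin 2 (Tpm2) fell from 826, 922 and 1035 to 567, 584 and 539 FPKM, a log2 fold change of -0.71 ± 0.11 (adjusted p = 0.0159). The filament nucleator Lmod1, the Z-disc protein Synpo2 and the LIM protein Csrp1 fell as well, with log2 fold changes from -0.91 to -0.62 and adjusted p-values from 0.0174 to 0.0429. Transgelin (Tagln) did not pass (log2 fold change -0.35 ± 0.13, adjusted p = 0.26), at 25.1 to 27.8 FPKM in co-culture and 28.1 to 37.7 in control. Its level is uncertain, since 62.4% of its exon bases overlap a gene annotated on the opposite strand and the counting, with default settings, did not use strand. Leaving out 1 library at a time, Acta2, Actg2, Cnn1, Myh11 and Mylk passed in all 6 fits, and the number of contractile DEG was 11, 8 and 14 without co-culture library 1, 2 or 3 and 8, 5 and 7 without control library 1, 2 or 3. In the model with all 24 libraries 0 of the 28 passed.

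**Figure D2:**
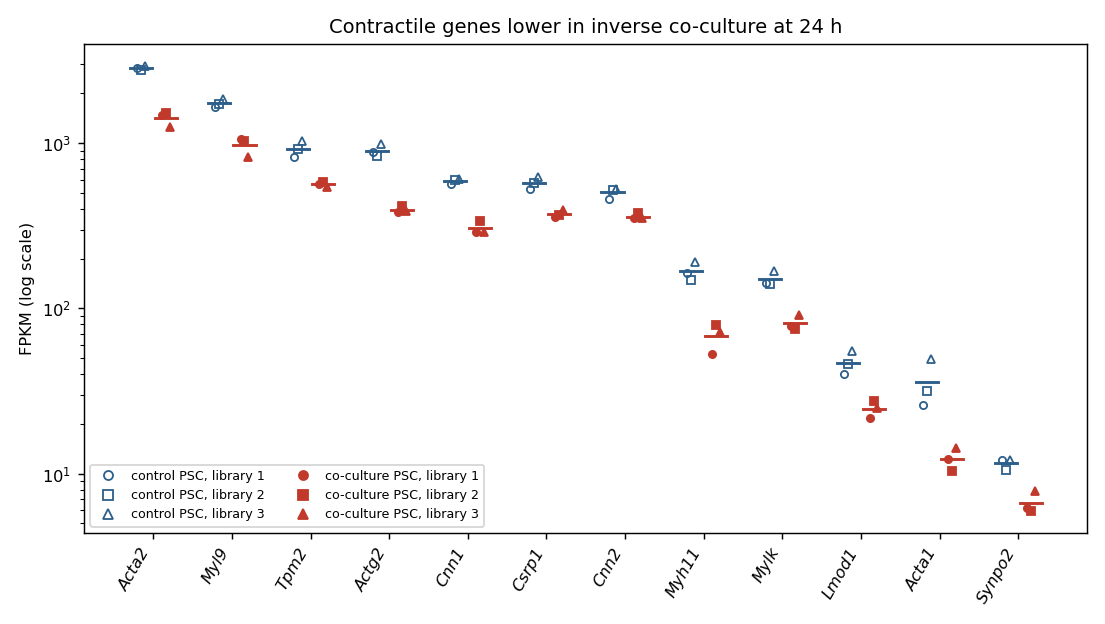
FPKM on a log axis of 12 of the contractile genes that fell, in each control library (open blue symbols) and each co-culture library (filled red symbols), with a bar at the mean of 3 libraries. For each of the 12 genes the 3 co-culture symbols lie below the 3 control symbols, from Acta2 at 1253 to 1519 against 2790 to 2922 FPKM down to Synpo2 at 5.98 to 7.86 against 10.5 to 12.2 FPKM.

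Many smooth muscle genes are known to be driven through the CArG box, the site bound by serum response factor. RefSeq promoters on GRCm38.p6, taken as the 250 bases before the annotated start, were searched on both strands for the CArG box, and the shown promoters are those of the contractile DEG that held a match, with the match in capitals. A match is a description of letters and not evidence of binding. The sequences are written 5′ to 3′ on the strand of the gene, and lie at chr8:123894776-123895025 on the minus strand for Acta1, chr2:156775214-156775463 on the plus strand for Myl9 and chr10:79988350-79988599 on the plus strand for Cnn2.
Acta1: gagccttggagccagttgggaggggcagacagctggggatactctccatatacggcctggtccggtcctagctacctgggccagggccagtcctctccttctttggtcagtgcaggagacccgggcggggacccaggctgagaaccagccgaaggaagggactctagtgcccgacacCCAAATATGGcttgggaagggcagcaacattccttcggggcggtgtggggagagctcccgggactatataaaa
Myl9: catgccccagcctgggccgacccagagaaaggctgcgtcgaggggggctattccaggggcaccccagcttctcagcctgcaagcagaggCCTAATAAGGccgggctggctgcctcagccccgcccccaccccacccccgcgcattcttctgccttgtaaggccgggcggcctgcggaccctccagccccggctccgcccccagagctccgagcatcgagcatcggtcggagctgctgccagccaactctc
Cnn2: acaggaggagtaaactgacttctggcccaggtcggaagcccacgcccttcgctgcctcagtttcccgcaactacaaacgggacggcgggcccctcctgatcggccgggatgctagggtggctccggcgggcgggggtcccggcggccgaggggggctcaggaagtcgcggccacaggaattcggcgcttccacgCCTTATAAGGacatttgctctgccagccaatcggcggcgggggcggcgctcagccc

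In these promoters the match lay 64 to 73 bases before the start of Acta1, 152 to 161 bases before that of Myl9 and 47 to 56 bases before that of Cnn2. A CArG box was found in 1.47% of all 32851 promoters in the table and in 133 of 9338 promoters of genes tested (1.42%). Of 22 tested contractile genes that had a promoter listed, 6 held it, namely Acta1, Actg1, Cnn2, Ldb3, Myl6 and Myl9, of which Actg1, Ldb3 and Myl6 did not pass the test of expression. It was found in 8 of 134 down-regulated DEG (5.97%), which besides these were Myom1, Fhl1, Fbxl22, Rasa4 and Vcl, and in 1 of 100 up-regulated DEG, Dusp5. Serum response factor itself (Srf) had 29.2, 32.1 and 47.9 FPKM in co-culture and 39.0, 38.5 and 45.4 in control, with overlap between the groups (log2 fold change -0.20 ± 0.18, adjusted p = 0.69). Its cofactor Mrtfa had a log2 fold change of -0.26 ± 0.10 (adjusted p = 0.269).

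Some of the genes that link actin to the membrane were down-regulated. Of 45 tested genes of the actin cytoskeleton and focal adhesions 7 fell and 0 rose, with a median log2 fold change of -0.323. The α-actinins, which cross-link actin filaments, were among them. Actn4 had 470, 523 and 419 FPKM in co-culture and 742, 746 and 722 in control, without overlap (log2 fold change -0.65 ± 0.10, adjusted p = 0.0176), and Actn1 had a log2 fold change of -0.59 ± 0.12 (adjusted p = 0.0417). Also lower were the myosin phosphatase subunit Ppp1r12a, tensin 1 (Tns1), the actin monomer binder Cap1, Lims2 and vinculin (Vcl), with adjusted p-values from 0.0192 to 0.0464. Of the exon bases of Vcl 25.5% overlap Ap3m1 on the opposite strand. Of these calls 2 were left after scaling each library by the median of gene ratios, and the list had 3, 1 and 8 DEG without co-culture library 1, 2 or 3 and 0 without any 1 of the control libraries.

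Among 13 tested integrin subunits Itga8 and Itga1 fell and 0 rose. Itga8, which pairs with β1 to bind fibronectin, osteopontin and other RGD proteins, had 1.87, 1.44 and 1.29 FPKM in co-culture and 8.33, 6.46 and 6.92 in control, and all co-culture values lay below all controls (log2 fold change -1.93 ± 0.20, adjusted p = 0.00514, passing in all 6 fits with 1 library left out). Itga1, a collagen-binding subunit, had 31.7, 36.2 and 25.1 FPKM against 60.01, 49.6 and 65.5 (log2 fold change -0.91 ± 0.16, adjusted p = 0.0257). Mcam, an adhesion molecule of pericytes and smooth muscle, fell from 82.7, 75.5 and 143 to 22.8, 28.0 and 25.8 FPKM (log2 fold change -1.90 ± 0.22, adjusted p = 0.0067). Of 18 tested target genes of YAP and TEAD 1, Crim1, fell and 0 rose, while Ccn1 and Ccn2 did not pass, with log2 fold changes of -0.07 and -0.46.

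The matrix genes did not move as a block. Of 10 tested fibril-forming collagen chains 1 rose, Col3a1, at 12036, 12234 and 12959 FPKM in co-culture and 8526, 8591 and 7699 in control, without overlap (log2 fold change 0.59 ± 0.11, adjusted p = 0.0299, up to 0.153 with 1 library left out). Under quantile normalization, which sets a gene of equal rank in all libraries to 1 value, its log2 fold change was 0 (adjusted p = 1), and the list had 0 DEG and a median of -0.0128. Col1a1 overlapped between the groups, with 6611 to 10369 FPKM in co-culture and 5877 to 7919 in control (log2 fold change 0.21 ± 0.18, adjusted p = 0.677). Of the 14 other collagen chains tested, Col15a1, a basement membrane-associated collagen, rose from 595, 479 and 526 to 824, 925 and 1081 FPKM (log2 fold change 0.82 ± 0.13, adjusted p = 0.0168). Of 19 tested enzymes and chaperones of collagen modification 0 passed limma's test, with 10 at an unadjusted p under 0.05, all higher, and 1 by voom. The median of these 19 was 0.301, and 13 of them, against 7.38% of all genes tested, had all co-culture values above all controls. Among these were the procollagen C-proteinase enhancer Pcolce, at 787 to 868 against 635 to 651 FPKM (adjusted p = 0.0869), and P4hb, a subunit of prolyl 4-hydroxylase (adjusted p = 0.0909).

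Of 41 tested matrix glycoproteins 3 rose and 4 fell. Leaving out 1 library gave 1 to 5 higher and 0 to 4 lower. The list had 0 lower without co-culture library 2, control library 1 or control library 3. Spp1 on chromosome 5 (104435118 to 104441050), which encodes the secreted phosphoprotein osteopontin, had 654, 686 and 1357 FPKM in co-culture libraries 1 to 3 and 75.3, 88.4 and 38.1 in controls. This was the largest increase of all DEG (log2 fold change 3.73 ± 0.35, adjusted p = 0.00341). The lowest co-culture value stood far above the highest control. Without co-culture library 3, which was the highest, the log2 fold change was 3.39 (adjusted p = 0.00175), and in the model with all 24 libraries the adjusted p was 0.154. Of its exon bases 18.8% are shared with another annotated gene on the same strand. Fibulin 1 (Fbln1) rose from 64.6, 56.8 and 41.3 to 117, 104 and 125 FPKM (log2 fold change 1.10 ± 0.16, adjusted p = 0.0159), and Sparcl1 rose by a log2 fold change of 1.29 ± 0.23 (adjusted p = 0.027). The lower genes included elastin (Eln) and fibulin 5 (Fbln5), which helps to assemble elastic fibres. Eln had 78.4, 68.7 and 48.5 FPKM against 123, 114 and 129, without overlap (log2 fold change -0.92 ± 0.17, adjusted p = 0.0275), and Fbln5 had a log2 fold change of -0.66 ± 0.14 (adjusted p = 0.0447). Ccn5 and the laminin chain Lama5 fell by 1.13 and 1.18 on the log2 scale. Fibronectin (Fn1) had 3901, 5114 and 7278 FPKM in co-culture and 3054, 1935 and 2638 in control, and although the groups did not overlap it missed the limit (log2 fold change 1.07 ± 0.24, adjusted p = 0.0558).

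Proteoglycans and the enzymes of their sugar chains gave few calls. Versican (Vcan), a large chondroitin sulfate proteoglycan, rose from 36.7, 33.2 and 22.2 to 50.7, 69.9 and 87.2 FPKM, with the highest control below the lowest co-culture value (log2 fold change 1.16 ± 0.23, adjusted p = 0.0391). Vcan passed in 2 of 6 fits with 1 library left out, with an adjusted p of up to 0.136. It was the 1 gene of 10 tested in its list that passed. Of 27 tested enzymes of chondroitin and heparan sulfate 2 rose and 0 fell. Sulf1, an extracellular sulfatase that edits heparan sulfate, had 161, 166 and 203 FPKM against 95.7, 90.6 and 84.6 (log2 fold change 0.96 ± 0.11, adjusted p = 0.00725), and Hs3st1 had a log2 fold change of 1.52 ± 0.23 (adjusted p = 0.0159). Among 19 syndecans, glypicans and small leucine-rich proteoglycans Sdc4 rose (log2 fold change 0.65 ± 0.13, adjusted p = 0.0431), while Gpc4 and Gpc6 fell (-0.90 and -0.63). With 1 library left out, Gpc4 passed in all 6 fits, Sdc4 in 2 and Gpc6 in 1.

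Proteases and their inhibitors held several of the strongest increases. Of 16 tested matrix metalloproteinases and inhibitors 3 rose, 1 fell and 12 did not pass. The median of the list was -0.254, opposite in sign to its leading genes. It was -0.133 without co-culture library 3 and -0.0542 without control library 3. Timp1 on the X chromosome (20870166 to 20874735), an inhibitor of metalloproteinases, had 1201, 1235 and 1208 FPKM in co-culture, a narrow range, and 344, 341 and 199 in control (log2 fold change 2.08 ± 0.19, adjusted p = 0.00341). Timp1 kept an adjusted p of 0.0392 in the model with all 24 libraries, where Mmp3 and Mmp10 did not pass (0.576 and 0.34). Stromelysin 1 (Mmp3), a secreted protease that cuts many matrix proteins, had 68.6, 62.9 and 86.6 FPKM against 15.1, 15.9 and 7.14 (log2 fold change 2.54 ± 0.28, adjusted p = 0.0052). Stromelysin 2 (Mmp10), a neighbour of Mmp3 on chromosome 9, had 3.16, 3.65 and 5.95 FPKM against 0.948, 0.960 and 1.51 (log2 fold change 1.51 ± 0.28, adjusted p = 0.0319). In each of the 3 genes no co-culture value reached the control range. In contrast, Mmp17 fell (log2 fold change -0.61 ± 0.12, adjusted p = 0.0405, passing in none of the 6 fits with 1 library left out), and the membrane-bound collagenase Mmp14, at 468 to 597 FPKM against 694 to 835, did not pass (log2 fold change -0.51 ± 0.12, adjusted p = 0.0702). The gelatinase Mmp2 overlapped between the groups (log2 fold change 0.19 ± 0.15, adjusted p = 0.635).

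Stromelysin genes are classic targets of AP-1, the Fos and Jun dimer, so their promoters were searched for TGANTCA, where N is any base, on both strands. This motif shares no match with the CArG box in the promoters shown. The promoters of Mmp3 at chr9:7445572-7445821 and of Mmp10 at chr9:7502092-7502341, both on the plus strand of GRCm38.p6 and from RefSeq, are shown because both genes rose and both held a match, which is in capitals.
Mmp3: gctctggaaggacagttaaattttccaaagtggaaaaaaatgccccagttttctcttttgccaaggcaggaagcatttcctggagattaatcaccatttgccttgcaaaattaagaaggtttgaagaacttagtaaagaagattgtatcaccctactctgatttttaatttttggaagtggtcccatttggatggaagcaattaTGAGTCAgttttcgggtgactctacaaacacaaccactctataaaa
Mmp10: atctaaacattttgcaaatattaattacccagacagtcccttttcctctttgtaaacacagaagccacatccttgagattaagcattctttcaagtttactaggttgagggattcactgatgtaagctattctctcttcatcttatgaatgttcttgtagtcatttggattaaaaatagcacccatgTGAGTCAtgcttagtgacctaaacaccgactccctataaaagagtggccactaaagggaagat

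The match lay 40 to 46 bases before the start of Mmp3 and 57 to 63 bases before that of Mmp10. The motif was found in 6.75% of all promoters in the table and in 5.26% of those of genes tested, in 9 of 100 up-regulated and in 12 of 134 down-regulated DEG, a like share in both directions. Besides the stromelysins, the up-regulated genes with a match included Il6, Igf1 and Olr1, and the down-regulated ones included Mylk, Actn4 and Igfbp2.

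Of 19 tested ADAMTS and plasminogen system genes 2 rose and 1 fell. Plat, the tissue-type plasminogen activator, had 97.7, 96.7 and 113 FPKM in co-culture and 46.6, 50.8 and 43.8 in control (log2 fold change 1.11 ± 0.11, adjusted p = 0.00462, passing in all 6 fits with 1 library left out). Serpine2, a serpin that inhibits thrombin and plasminogen activators, rose with it, from 151, 148 and 131 to 256, 232 and 217 FPKM (log2 fold change 0.71 ± 0.10, adjusted p = 0.0159). Both groups of values were tight and did not overlap in either gene. Adamts1 fell by 0.72 ± 0.11 on the log2 scale (adjusted p = 0.0168).

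The DEG among chemokines and in the interleukin-6 family were all up-regulated in the comparison of the 6 libraries by limma. Of 11 tested CC chemokine genes 3 rose and 0 fell, with a median of 0.263. Ccl11 on chromosome 11 (82057823 to 82062955), the eosinophil attractant eotaxin, had 17.2, 16.6 and 20.1 FPKM in co-culture and 2.38, 2.46 and 2.62 in control, a ratio of the means of 7.23. Both groups were narrow, and it had the smallest adjusted p of all genes (log2 fold change 2.62 ± 0.15, adjusted p = 0.000461). The monocyte attractants Ccl2 and Ccl7 rose less evenly. Ccl2 had 90.2, 70.9 and 43.5 FPKM against 21.1, 24.2 and 19.1 (log2 fold change 1.59 ± 0.24, adjusted p = 0.0159), and Ccl7 had 128, 99.1 and 86.7 against 49.2, 64.3 and 43.8 (log2 fold change 0.99 ± 0.18, adjusted p = 0.0275). In both genes co-culture library 1 was highest and library 3 lowest, yet above all controls. Of 8 tested CXC chemokine genes and their relatives Cxcl5 and Cx3cl1 rose. Cxcl5, a neutrophil attractant, had 34.1, 32.6 and 11.8 FPKM against 5.11, 6.08 and 2.13 (log2 fold change 2.40 ± 0.44, adjusted p = 0.0308), and its adjusted p rose to as much as 0.113 with 1 library left out. Without co-culture library 3, 5 of the 8 genes passed as higher, and without any other single library 0 passed as higher. In the list 1 gene passed as lower without co-culture library 1 and 1 by voom. Cxcl12, by contrast, ranged from 62.9 FPKM in co-culture library 3 to 229 in library 1, with controls between (adjusted p = 0.971).

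Of 21 tested genes of the interleukin-6 family and its JAK-STAT3 pathway 6 rose and 0 fell, 18 had a positive log2 fold change, and the median was 0.492. The medians of the 3 co-culture libraries were close, at 0.467, 0.336 and 0.382 above the control mean on the log2 scale. Il6 had 66.2, 43.4 and 79.8 FPKM against 26.6, 31.8 and 22, and its lowest co-culture value, in library 2, was nearest to the controls (log2 fold change 1.19 ± 0.22, adjusted p = 0.0311, up to 0.141 with 1 library left out). The oncostatin M receptor Osmr rose by a log2 fold change of 0.51 ± 0.11 (adjusted p = 0.0459, passing in none of the 6 fits with 1 library left out). The pathway's target Bcl3, the acute-phase protein Lcn2 and Socs5, a suppressor of cytokine signalling, rose as well, with log2 fold changes from 0.70 to 1.35. Lif had 7.84, 7.47 and 13.1 FPKM against 6.07, 7.20 and 5.93, and did not pass (log2 fold change 0.49 ± 0.22, adjusted p = 0.345), and neither did Socs3 nor the shared receptor Il6st (adjusted p = 0.575 and 0.826). The number of DEG in the list was 3, 3 and 4 without co-culture library 1, 2 or 3 and 1, 1 and 2 without control library 1, 2 or 3, and 0 in the model with all 24 libraries.

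Other secreted immune proteins moved in part. Complement C3 had 1103, 1082 and 971 FPKM against 661, 593 and 620 (log2 fold change 0.75 ± 0.10, adjusted p = 0.00809), and of 13 tested complement and pentraxin genes 2 rose and 0 fell. In this list 1 gene passed as lower by voom and 1 without co-culture library 1, where the median of the list was -0.0204 against 0.115. Serpina3n, an acute-phase serpin outside the lists and named after its values were seen, had 129, 114 and 113 FPKM against 45.7, 45.7 and 38.6, narrow in both groups and without overlap (log2 fold change 1.45 ± 0.11, adjusted p = 0.00318). Of 19 tested genes of NF-κB feedback and the interleukin-1 system 0 passed, with a median of 0.256. At an unadjusted p under 0.05 there were 6, and 1 passed by voom. Leaving out co-culture library 3 gave a median of 0.426 and 3 genes higher, and leaving out co-culture library 1 a median of 0.164.

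**Figure D3:**
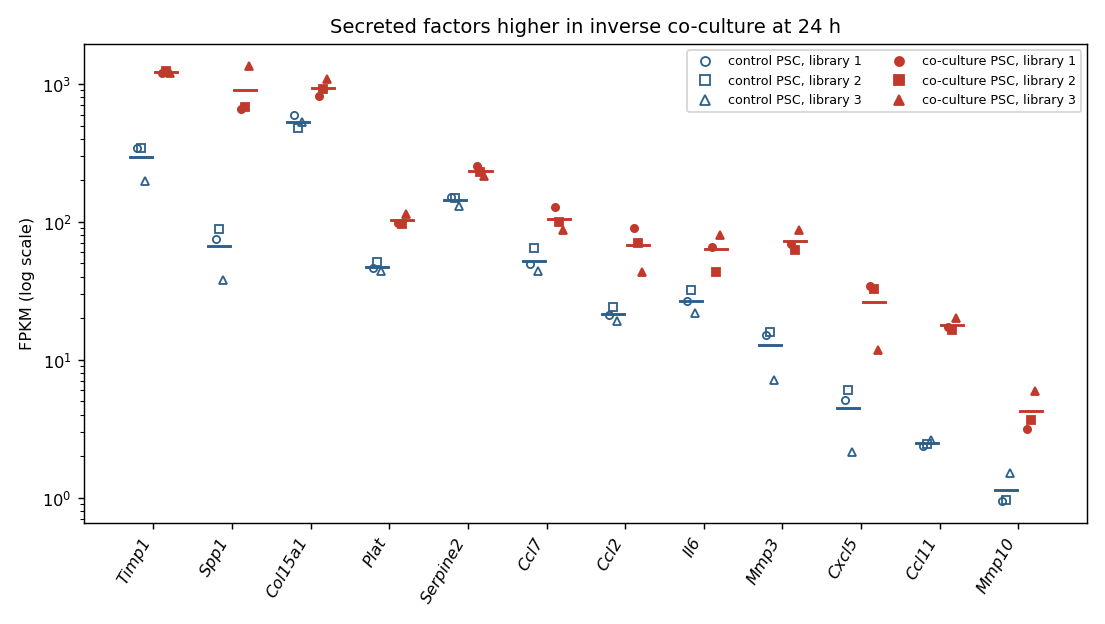
FPKM on a log axis of 12 secreted factors that rose, in each control library (open blue symbols) and each co-culture library (filled red symbols), with a bar at the mean of 3 libraries. The co-culture symbols lie above the control symbols in every gene, with the widest separation in Spp1 (654 to 1357 against 38.1 to 88.4 FPKM). Both groups are narrow in Ccl11 (16.6 to 20.1 against 2.38 to 2.62 FPKM).

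Growth factor lists held few DEG each. Epiregulin (Ereg), a ligand of the EGF receptor, had 3.71, 4.89 and 6.63 FPKM in co-culture and 1.92, 1.25 and 1.04 in control, without overlap, and was the 1 gene of 8 tested in its family that passed (log2 fold change 1.54 ± 0.27, adjusted p = 0.026). Of 14 tested HGF and FGF genes 1 rose and 1 fell, with a median of -0.185, which was 0.15 without co-culture library 3. Fgf2, basic fibroblast growth factor, rose from 233, 232 and 206 to 374, 347 and 485 FPKM (log2 fold change 0.83 ± 0.13, adjusted p = 0.0187). Fgf13, an intracellular member of the FGF family, had 1.42, 1.55 and 0.734 FPKM against 3.26, 3.27 and 4.13 (log2 fold change -1.25 ± 0.27, adjusted p = 0.0497), and passed in none of the 6 fits with 1 library left out. Hgf, the ligand of the MET receptor, had 22.4, 23 and 19.5 FPKM against 14.5, 15.5 and 12.8 and narrowly missed the limit (log2 fold change 0.58 ± 0.13, adjusted p = 0.0576). In the IGF system Igf1 and the binding protein Igfbp6 rose and Igfbp2 fell. Igf1 had 70.1, 57.5 and 66.3 FPKM against 40.3, 36.2 and 30.2 (log2 fold change 0.86 ± 0.13, adjusted p = 0.0168), and Igfbp2 had 226, 223 and 177 against 381, 420 and 557 (log2 fold change -1.10 ± 0.16, adjusted p = 0.0137). No value of one group reached the other in either gene. Of 17 tested PDGF, VEGF and angiopoietin genes Pdgfra and Angptl2 rose (0.53 and 0.44) and Nrp2, a receptor for semaphorins and VEGF-C, fell (log2 fold change -1.68 ± 0.27, adjusted p = 0.0184). This list had 0 DEG without co-culture library 2 and without any 1 of the control libraries.

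TGF-β is the best known inducer of the contractile state. Of 23 tested genes of TGF-β and activin signalling 1 rose and 2 fell, with a median of 0.0205. Leaving out control library 1, 2 or 3 gave 0 DEG in the list. It had 0 higher and 1 lower without co-culture library 2, and 1 and 4 without co-culture library 3. Tgfb3 had 28.2, 30.5 and 21.6 FPKM in co-culture and 52.8, 46.4 and 54.8 in control, without overlap (log2 fold change -0.94 ± 0.15, adjusted p = 0.0168). Tgfb2 and Tgfb1 did not pass, with log2 fold changes of -0.75 ± 0.16 (adjusted p = 0.0508) and 0.48 ± 0.12 (adjusted p = 0.0908). The receptor Tgfbr1 rose from 82.2, 84.2 and 73.3 to 122, 124 and 137 FPKM (log2 fold change 0.67 ± 0.10, adjusted p = 0.0159), and Gdf15 fell (log2 fold change -0.74 ± 0.11, adjusted p = 0.0165). Smad3, an effector of these receptors outside the list and named after its values were seen, rose by a log2 fold change of 0.94 ± 0.15 (adjusted p = 0.0168). Of 18 tested BMP genes 0 passed limma's test, with 10 at an unadjusted p under 0.05 and 4 by voom, 1 higher and 3 lower.

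Of 9 tested Notch genes 1 rose and 3 fell. Notch4 had 6.07, 6.40 and 10.4 FPKM against 1.99, 1.51 and 2.56 (log2 fold change 1.67 ± 0.25, adjusted p = 0.0164), whereas Notch3, the receptor typical of mural cells, had 13.6, 18.2 and 17.8 against 29.9, 24.0 and 33.2 (log2 fold change -0.79 ± 0.16, adjusted p = 0.0441). The ligand Jag1 had 9.44, 8.94 and 9.99 FPKM against 22.1, 17 and 17.3 (log2 fold change -0.95 ± 0.14, adjusted p = 0.0164). Lfng, a glycosyltransferase that modifies Notch receptors, fell by 1.23 on the log2 scale (adjusted p = 0.00797). In Notch3, Jag1 and Lfng all co-culture values lay below all controls, as in 13.8% of all genes tested. With 1 library left out, Lfng passed in all 6 fits, Jag1 in 2 and Notch3 in 1. Notch4 and Lfng also passed in the model with all 24 libraries (adjusted p = 0.0495 and 0.0349), but Notch3 and Jag1 did not (0.313 and 0.113). In the Wnt list Frzb, a secreted antagonist, and the ligand Wnt11 rose, as 2 of 20 genes tested, and 0 fell. Of 18 tested feedback genes of the ERK pathway Dusp5 rose (log2 fold change 1.14 ± 0.17, adjusted p = 0.0159), and 8, against 7.38% of all genes tested, had all co-culture values above all controls. Of the exon bases of Dusp5 22.1% overlap a gene on the opposite strand. Of 19 immediate early genes 0 rose and Klf2 fell (log2 fold change -1.11 ± 0.17, adjusted p = 0.0164).

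In several lists the co-culture libraries stood apart from each other. Of 23 tested interferon-stimulated genes all 23 had a positive log2 fold change and the median was 0.665, but 0 passed, with 13 at an unadjusted p under 0.05 and 3 by voom. The list stood at 1.73 above the control mean in co-culture library 1, at 0.553 in library 2 and at 0.143 in library 3, where control library 3 stood at 0.231. Isg15, the ubiquitin-like modifier induced by interferon, had 76.3, 26.8 and 20.03 FPKM in co-culture and 6.56, 9.28 and 18.03 in control, with co-culture library 3 close to control library 3 (adjusted p = 0.131). Irf7, the factor that amplifies type I interferon, had 38.7, 13.1 and 12.9 FPKM against 3.96, 4.03 and 7.50 (log2 fold change 1.82 ± 0.41, adjusted p = 0.0604). Without co-culture library 1 the median of the list was 0.434 and 1 gene passed, and without co-culture library 3 it was 1.15 and 7 passed.

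Glycolysis and hypoxia genes had the opposite library pattern. The median of 30 tested genes was 0.427, with 1 DEG, the glucose transporter Slc2a3 (log2 fold change 1.23 ± 0.26, adjusted p = 0.0452), which passed in none of the 6 fits with 1 library left out. The list stood at 0.0751 and 0.0772 above the control mean in co-culture libraries 1 and 2, and at 1.03 in library 3. Slc16a3, the lactate exporter MCT4, had 56.5, 63.7 and 242 FPKM in co-culture and 57.3 to 69.4 in control, and Ndufa4l2, a hypoxia-induced mitochondrial protein, had 20.4, 14.5 and 210 against 12.01 to 21.1. In both, libraries 1 and 2 were within or next to the control range and library 3 was far above it (adjusted p = 0.622 and 0.498). Without co-culture library 3 the median of the list was 0.130.

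Adipocyte genes were lower in libraries 2 and 3 of co-culture. Of 20 tested genes 1 fell, Cdo1, the first enzyme of cysteine breakdown, with 18.1, 13.3 and 9.66 FPKM against 26.0, 24.9 and 33.1 (log2 fold change -1.04 ± 0.22, adjusted p = 0.046). The list stood at 0.0347, -0.431 and -0.793 relative to the control mean in co-culture libraries 1 to 3, and at 0.299 in control library 3. The lipid droplet protein gene Plin1 had 50.1, 31.5 and 17.7 FPKM against 54.7, 51.2 and 84.5, without overlap, and did not pass (log2 fold change -1.02 ± 0.34, adjusted p = 0.191). Without co-culture library 3, in which macrophage genes were also low, the median of the list was -0.168, and what part that library's make-up had in it was not tested. Of 25 tested genes of triglyceride and fatty acid metabolism 2 rose, the desaturase Scd1 and the ligase Acsl4, and 0 fell.

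The cell cycle lists gave no DEG by limma. Of 31 tested genes of DNA replication and 27 of mitosis 0 passed, with 1 and 0 at an unadjusted p under 0.05 and 0 by voom. Mki67, a marker of cycling cells, had 8.91, 14.4 and 22.6 FPKM in co-culture and 19.5, 17.7 and 10.7 in control, so the spread within a group was as wide as that between them. The 14 tested genes of the mitochondrial list, which does not hold the transfer RNA gene mt-Tr, also gave 0 DEG and had 0 at an unadjusted p under 0.05, with list medians of 0.182, -0.190 and -0.554 in co-culture libraries 1 to 3. Of 25 genes of the ATF4 response and 14 of antigen presentation 0 passed in either list, with 4 and 1 at an unadjusted p under 0.05 and 0 and 1 by voom. Of 19 genes of the unfolded protein response Xbp1 and Mcfd2 rose, Xbp1 from 182, 174 and 158 to 308, 276 and 246 FPKM (log2 fold change 0.69 ± 0.11, adjusted p = 0.0187). Mt1, a metallothionein, was the 1 DEG among 14 tested genes of NRF2 and metal response (log2 fold change 0.94 ± 0.17, adjusted p = 0.0266). In the sterol list the cholesterol carrier Npc2 rose and the exporter Abcg1 fell, out of 29 genes.

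In a list of 21 tested genes of caveolae, retinoid handling and prostanoids, the prostacyclin synthase Ptgis rose (0.51 ± 0.10) and caveolin 1 (Cav1), the coat protein of caveolae, fell from 148, 143 and 151 to 98.3, 89.8 and 77.1 FPKM without overlap (log2 fold change -0.74 ± 0.11, adjusted p = 0.0159).

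**Figure D4:**
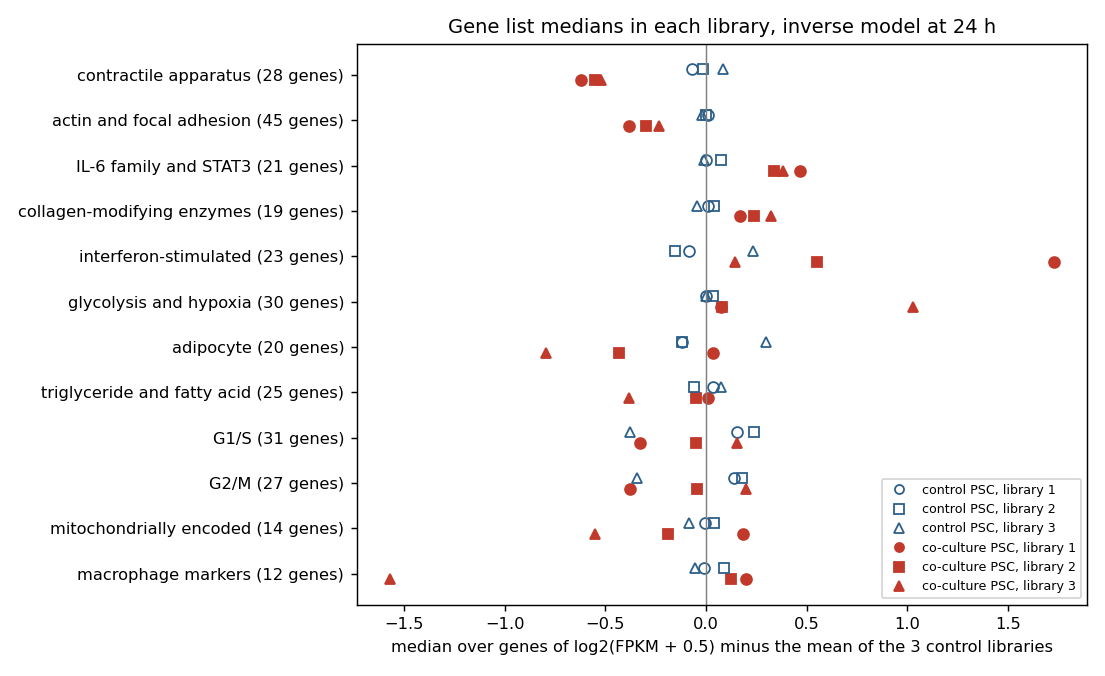
Median over the tested genes of 12 lists, in each library, of log2(FPKM + 0.5) minus the mean of the 3 controls, with controls as open blue and co-culture as filled red symbols. The contractile list lies at -0.619 to -0.524 in all 3 co-culture libraries, while the interferon list reaches 1.73 in co-culture library 1 and the glycolysis list 1.03 in co-culture library 3.

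A list of 32 genes shared by both co-culture models was taken from the study, which chose it on these libraries among others, so their direction here is not independent evidence. Of 31 that were tested 14 rose, 6 fell and 11 did not pass, and Chst11, Cdr2l, Fn1 and Hgf were just outside the limit, with adjusted p-values from 0.0504 to 0.0576. In the model with all 24 libraries Chst11 passed (adjusted p = 0.0392), and Cdr2l, Fn1 and Hgf did not. With 1 library left out Chst11 passed in 1 of 6 fits. Stac2, an adaptor of voltage-gated calcium channels, had 21.3, 22.3 and 29.5 FPKM in co-culture and 7.01, 7.08 and 7.02 in control, almost equal between controls and without overlap (log2 fold change 1.71 ± 0.15, adjusted p = 0.00337). It kept an adjusted p of 0.00974 in the model with all 24 libraries. Mcfd2, a cargo receptor of the secretory pathway, rose from 199, 225 and 207 to 348, 339 and 373 FPKM (log2 fold change 0.75 ± 0.09, adjusted p = 0.00786). Insc fell from 5.17, 4.77 and 8.12 to 0.357, 0.761 and 0.962 FPKM (log2 fold change -2.45 ± 0.30, adjusted p = 0.00727). Its co-culture values were all under 1 FPKM, so it passed the filter only through its controls. It was therefore not tested when any control library was left out. The count of higher and lower members was 17 and 6, 5 and 2, and 13 and 7 without co-culture library 1, 2 or 3, and 4 and 2, 4 and 1, and 4 and 1 without control library 1, 2 or 3.

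Among the 20 genes with the largest rise and the 20 with the largest fall, several are outside the lists. Tmem150a on chromosome 6 had 22.3, 19.6 and 12.1 FPKM in co-culture and 1.55, 2.56 and 2.09 in control (log2 fold change 2.82 ± 0.25, adjusted p = 0.00337). Olr1, a scavenger receptor for oxidised low-density lipoprotein, rose by 2.33 ± 0.25 on the log2 scale, Star, which carries cholesterol into mitochondria for steroid synthesis, by 2.28 ± 0.24, and Dio3, which inactivates thyroid hormone, by 2.02 ± 0.21, with adjusted p-values from 0.00514 to 0.0052. Ch25h, cholesterol 25-hydroxylase, had 47.1, 42.0 and 115 FPKM against 12, 12.9 and 19.3, with library 3 highest in co-culture (log2 fold change 2.04 ± 0.35, adjusted p = 0.0241). In the other direction Myom1, a protein of the sarcomeric M-band, had 1.99, 1.88 and 1.21 FPKM against 10.4, 9.39 and 11.3 (log2 fold change -2.33 ± 0.20, adjusted p = 0.00337). Ramp1, a subunit of the receptor for the vasodilator peptide CGRP, fell from 19.3, 22.1 and 27.5 to 9.45, 6.16 and 6.27 FPKM, and also passed in the model with all 24 libraries (adjusted p = 0.0392). The largest falls of all, of mt-Tr and Mir5119, rested on 0 to 4 fragments per co-culture library and 4 to 21 per control library in genes shorter than a read, and that of Psmd10 on 6 to 44 against 82 to 213 fragments.

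The same PSC model was sequenced at 72 h, with co-culture and control libraries of its own. There 1678 of 13066 genes tested were DEG (12.8%), 427 up-regulated (3.27%) and 1251 down-regulated (9.57%). Of the 317 DEG of 24 h 314 were tested at 72 h, 295 had the same sign, where 69.4% of all genes tested in both did, and 139 were DEG there too, which is 139 of the 1678. Whether the effect itself differed between the times was tested in one model over the 12 libraries of the inverse model, and 0 of 13722 genes (0.0%) passed, with 1471 at an unadjusted p under 0.05 and a smallest adjusted p of 0.0595. The contractile list had a median log2 fold change of -0.116 at 72 h. For Acta2 the value at 72 h was -0.25 ± 0.33 (adjusted p = 0.636), and the difference, 72 h minus 24 h, of 0.76 had an adjusted p of 0.495. Over 29 contractile genes the median difference was 0.433, with 8 at an unadjusted p under 0.05 and 0 at an adjusted p under 0.05, and of 29 tested at 72 h 2 rose, Myh9 (0.76) and Tagln2 (1.06), and 3 fell, among them Acta1 (-2.04) and Pdlim3 (-1.73).

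Among secreted factors, Spp1 and Timp1 had log2 fold changes of 3.21 and 1.86 at 72 h, both DEG (adjusted p = 0.00269 and 0.023). Ccl11 had 0.92 (adjusted p = 0.0985) against 2.62 (difference -1.71, adjusted p = 0.155). Tmem150a had 0.14 at 72 h (adjusted p = 0.822) against 2.82 at 24 h, the difference of -2.69 having an adjusted p of 0.0723. Neither of the last differences passed the limit. The adipocyte list, with 1 DEG at 24 h, had 18 lower of 20 tested at 72 h, and the median difference between the times was -2.19, with 18 of 20 at an unadjusted p under 0.05 and 0 at an adjusted p under 0.05. Macrophage markers moved with it, with 9 lower and 1 higher of 13 tested at 72 h and a median of -1.44, and their part in the adipocyte result was not tested. Interferon-stimulated genes had a median of 0.665 at 24 h and -0.297 at 72 h, with 16 of 23 at an unadjusted p under 0.05 for the difference, and for mitotic genes the medians were -0.0903 and 0.745, with 19 of 27. Without co-culture library 3 of 24 h, the library with the high glycolysis genes, 75 genes passed the test of the difference.

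In the standard model at 24 h, where KPC cells were further away and the cells had been together for a shorter time, 0 of 12859 genes (0.0%) were DEG by limma, with 371 at an unadjusted p under 0.05. The study's DESeq2 test on counts did call DEG in this comparison, among them Vcan and Stac2. The 0 therefore holds only for limma on FPKM in the standard model. Of the 317 inverse DEG 315 were tested there, and 306 had the same sign in these libraries, which the inverse comparison did not use, where 65.5% of all genes tested in both comparisons did. Spp1 had a log2 fold change of 2.78 ± 0.93, Timp1 of 1.5 ± 0.33 and Mmp3 of 2.06 ± 1.28 in the standard model. Acta2 had -0.62 ± 0.90. Tmem150a had -1.42 ± 0.83 there, opposite in sign to the inverse model. The difference between the models at 24 h was tested over the 12 libraries of that time, and 0 of 13554 genes (0.0%) passed, with 147 at an unadjusted p under 0.05 and a smallest adjusted p of 1.0. Distance, time together and RNA input (120 against 450 ng) differ between the models at once and cannot be told apart.

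**Figure D5:**
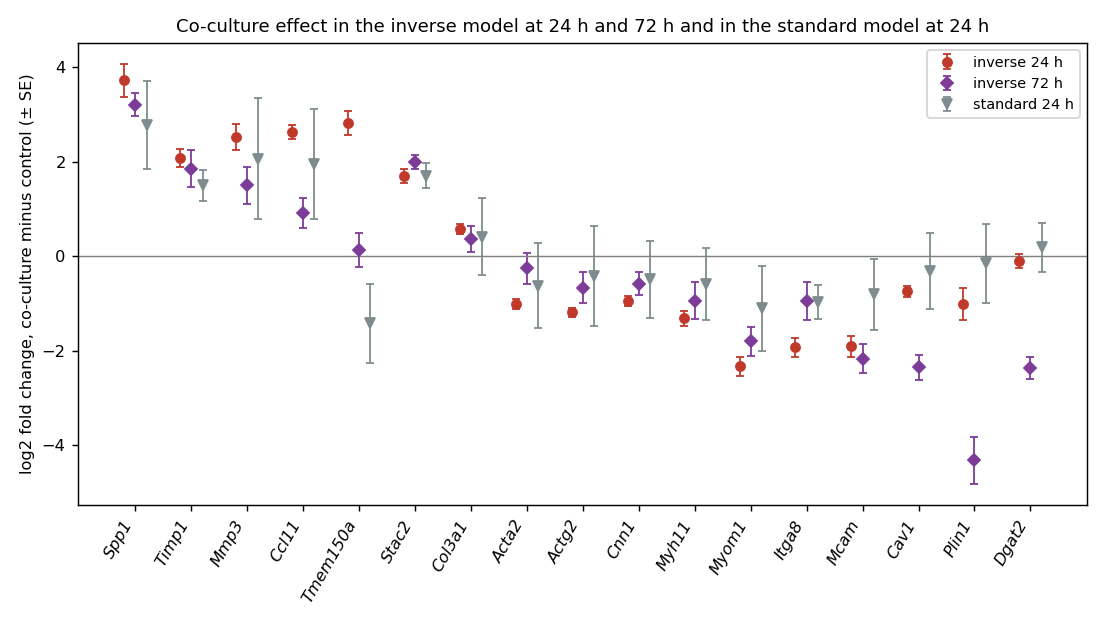
Log2 fold change, co-culture minus control, with its standard error for 17 genes in the inverse model at 24 h (red circles) and 72 h (purple diamonds) and in the standard model at 24 h (grey triangles), each from its own 6 libraries. Spp1 is at 3.73, 3.21 and 2.78 in these comparisons, Acta2 at -1.01, -0.25 and -0.62, and the lipid droplet gene Plin1 reaches -4.32 at 72 h.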

How the data were processed

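The authors sequenced poly-A RNA (paired ends of 150 bases), aligned it to GRCm38.p6 with HISAT2 2.0.5, counted fragments with featureCounts 1.5.0-p3 at default settings, which ignore strand, and deposited FPKM values, which are the data used here. Their tests used DESeq2 1.20.0 on counts that were not used here. Whole fragments were recovered from the low values in 99.8% of 28892 genes above 0 (tolerance 0.02) and gave the depths, which limit precision most for low genes. FPKM were taken as log2(FPKM + 0.5) and tested with limma 3.58.1 (moderated test with intensity trend, R 4.3.3) on the 6 libraries compared, or on 12 for differences between times or models. The fit was tested on simulated data with known changes. The members and the gene lists were chosen with earlier results of these data known, and list counts and medians are descriptions. Named were the 20 genes with the largest rise and the 20 with the largest fall among DEG with a mean above 5 FPKM in a group and the same direction in all same-numbered pairs, list members by role, and the study's shared genes. Others are said to be chosen after their values were seen. Alternatives changed the pseudocount, filter, scaling, trend, replicate block, libraries or tool (voom). RefSeq promoters were matched by symbol. Motif counts and figures were made with Python 3.11.15. Some genes and alleles are not reported here.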

Additional observations from a re-analysis of the deposited data

How the results depend on the processing

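The 317 DEG became 57 (30 higher, 27 lower) at an adjusted p under 0.01, 12 (6 and 6) with all 24 libraries in one model, 50 (26 and 24) with no filter on FPKM, 98 (47 and 51) with no intensity trend and 528 (227 and 301) by voom. Leaving out 1 library gave 67 to 412 DEG, 38 to 193 higher and 29 to 219 lower, with the lowest count without control library 3 and the highest without co-culture library 3. Scaling by the median of gene ratios gave 324 DEG, of which 44.8% were lower, against 56.2% as reported. Pseudocounts of 0.1 and 1, a mean FPKM above 5 and quantile normalization gave 313 to 337. The replicate block gave 88 DEG (46 and 42). Same-numbered libraries did not deviate together (correlations -0.171, 0.0388 and -0.134), so the numbers were not taken as pairs. For the difference between the times, 0 genes became 4 (1 higher, 3 lower) with no filter, 8 (1 and 7) with no trend, 2 (0 and 2) with a pseudocount of 1 and 2 (0 and 2) with quantile normalization, and 0 to 75 (0 to 17 higher, 0 to 58 lower) with 1 library left out, of which 20 were without co-culture library 2 and 43 without control library 2 of 72 h. For the difference between the models, 1 gene (0 higher, 1 lower) passed with no filter and 0 with any library left out. Of the list members, 99 DEG became 35 with the replicate block and 25 to 130 with 1 library left out, an alternative chosen after seeing the data. Of 2782 values of named genes under the alternatives, 1729 kept their direction and side of the limit, 1028 lost and 25 gained the limit, and 0 reversed. Of 154 named DEG 42 passed in all 6 fits with 1 library left out. Depth limits genes such as mt-Tr most, at 0 to 4 fragments per co-culture library.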

Other observations

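Of the 317 DEG 218 were in none of the gene lists. The genes in this section were chosen after their values were seen, so they show what else is among the DEG and are no evidence for a group.

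Several DEG outside the contractile list are known from heart or skeletal muscle, and those named here were lower in co-culture. Dmpk, the kinase mutated in myotonic dystrophy, had 373, 329 and 316 FPKM in co-culture and 573, 644 and 763 in control (log2 fold change -0.95 ± 0.12, adjusted p = 0.0089 by limma, and 0.0246 in the model with all 24 libraries). Fhl1, a LIM protein of striated muscle, had 176, 197 and 177 FPKM against 338, 359 and 415 (log2 fold change -1.01 ± 0.11). Hspb6, a small heat shock protein of muscle, had 25.5, 26.3 and 18.5 FPKM against 57.0, 53.8 and 65.8 (log2 fold change -1.32 ± 0.15). No co-culture value reached the controls in these genes. Eno3, the muscle enolase, fell by 1.10 on the log2 scale, Plcb4, a phospholipase downstream of Gq-coupled receptors, by 1.21, and Jph2, which ties the plasma membrane to calcium stores, by 0.89. The oxytocin receptor gene Oxtr fell from 13.6, 13.7 and 14.6 to 7.46, 6.98 and 3.77 FPKM (adjusted p = 0.0351), and the sodium-calcium exchanger Slc8a1 had a log2 fold change of -0.93 (adjusted p = 0.0168).

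Genes of cyclic AMP signalling were found in both directions. The phosphodiesterases Pde4b, Pde4d and Pde1a rose, with log2 fold changes of 0.93, 0.72 and 0.66 and adjusted p-values of 0.0459, 0.0492 and 0.0234. The kinase subunit Prkar2b fell from 48.0, 50.04 and 53.7 to 29.8, 26.4 and 27.0 FPKM (log2 fold change -0.85 ± 0.11, adjusted p = 0.00776), and the kinase inhibitors Pkia and Pkig and the cyclases Adcy1 and Adcy5 fell as well. Adora2b, an adenosine receptor that raises cyclic AMP, had 21.4, 21.7 and 22.9 FPKM against 10.4, 11.9 and 9.28, without overlap (log2 fold change 1.04 ± 0.13, adjusted p = 0.00786). With 1 library left out, Prkar2b, Pkia and Adora2b passed in all 6 fits and Pde1a and Pkig in 2. Pde4b and Adcy1 passed in 1, and Pde4d and Adcy5 in none.

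Among enzymes of small lipophilic hormones, Rdh10, which oxidises retinol, had 29.6, 26.8 and 26.9 FPKM in co-culture and 12.1, 14.1 and 12.5 in control (log2 fold change 1.08 ± 0.12, adjusted p = 0.00521), and the oxysterol hydroxylase Cyp7b1 had 23.5, 18.5 and 16.8 against 8.61, 9.76 and 6.40 (log2 fold change 1.20 ± 0.19, adjusted p = 0.0168). The GABA-A receptor subunit genes Gabra3 and Gabre rose, Gabra3 from 11.2, 12.4 and 9.91 to 30.5, 27.6 and 37.4 FPKM (log2 fold change 1.47 ± 0.15, adjusted p = 0.00514). Apln, the vasoactive peptide apelin, had 21.9, 22.7 and 43.9 FPKM against 12.7, 12.2 and 9.61 (adjusted p = 0.0418), with co-culture library 3 highest.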
